A study of Saccharomyces cerevisiae with 4 samples.

Results

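The dis3mtr strain of *Saccharomyces cerevisiae*, whose mutation lies in the catalytic subunit of the RNA exosome, was compared with wild type (WT) over the genes that the authors listed in 16 tables of tubulin, spindle and mitotic functions. Every listed open reading frame (ORF) with values was taken once, and its dis3mtr value was divided by its WT value, which gave 133 ORFs of the 144 listed. The other 11 ORFs, among them SWE1, TEM1, DBF4 and CDC34, carried no values. Since 3 pairs of ORFs carried the same values, the 133 ORFs held 130 distinct sets of values, and these are the features counted below.

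The mutant group was dis3mtr (strain T186, an allele also called rrp44-1 or mtr17-1), and its control was WT (strain BJ2664). The exosome ring mutant mtr3-1 (strain T208) and the helicase mutant mtr4-1 (strain T188) are given beside them where this adds to a dis3mtr value. Their values are as deposited, without scaling between libraries, unless stated. All 4 cultures were grown in YPD at 30 °C until OD600 reached 0.4 and then spent 2 h at 37 °C before RNA was harvested, so WT went through the same heat shift. Each genotype was sequenced as 1 library of poly(A)-selected RNA, and each genotype was its own strain, so genotype, strain background and library cannot be told apart. No spread between replicates exists and no test was possible. The deposited values are not counts, so their depth is unknown too. The DIS3 transcript, which would check the genotype, is not analysed here.

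The exosome degrades or trims RNA from the 3′ end, in the nucleus and in the cytoplasm. Its ring subunits, Mtr3 among them, form a channel that leads RNA to Dis3, the subunit that cuts, and the helicase Mtr4 feeds nuclear RNA into it together with a polyadenylating partner complex. Poly(A) selection keeps any polyadenylated RNA, so the values do not separate translated mRNA from polyadenylated nuclear RNA. The series title names microtubule defects of the DIS3 mutant as the subject, and the listed genes cover tubulin and its folding, the motors, the checkpoints and the machinery that ends mitosis. In a bulk culture, a larger share of cells at a cell-cycle stage and more RNA per cell cannot be told apart.

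Over the 130 features the dis3mtr values summed to 10620.9 units, against 12209.8 units in WT, where a unit is the authors' normalized value. Without ACT1, HHT1 and HHT2, the genes with the highest values, the sums were 8142.63 units in dis3mtr and 8117.66 units in WT. The median value was 40.2 units in dis3mtr, 29.0 in mtr3-1, 24.9 in mtr4-1 and 29.2 in WT. The histone H3 genes alone, with 1089 units in dis3mtr and 2923 in WT, differed by more than the sums over all features did.

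The median feature stood at 112.5% of WT, with quartiles at 88.4% and 157%. The authors called a gene increased once it reached 115% of WT and decreased once it was down to 85%; such features are called high and low below. Of the 130 features, 61 (46.9%) were high and 30 (23.1%) low. After each ratio was divided by the median ratio, 47 features (36.2%) were high and 41 (31.5%) low. After division by the ratio of the summed values instead, 83 features (63.8%) were high and 23 (17.7%) low, so the balance of high and low depends on the scaling. The ratio of the summed values itself rests on HHT1, HHT2 and ACT1. Without them the sums were 8142.63 units in dis3mtr and 8117.66 in WT, as given above. The count of each gene group below is for the ratios as deposited and is to be read against the shares of 46.9% high and 23.1% low over all features. At least 200% of WT was reached by 25 features (19.2%), and 10 features (7.69%) were at 50% or less. Just inside the upper threshold lay RSC9 at 117.5% and PPH22 at 117.6%, and just outside it CDC15 at 115.0% (under the threshold before rounding) and SGO1 at 113.8%. Near the lower threshold lay CCT3 at 84.5% and RSC3 at 83.3% inside it, and AMN1 at 87.1% and CLB5 at 88.1% outside it.

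The identity of 9 features is uncertain. GLC7 shares its values with YER133W-A, CBF2 with KCC4, and DMA2 with CTF13. The listed positions of SKP1 and BNI5 are exchanged, as are those of CEP3 and GIN4, and YFR036W-A (listed as CDC26) and YDR118W-A (listed as APC4) have no entry in the R64 annotation. Both extremes of the whole range belong to such features, 1048% for YFR036W-A and 14.7% for GLC7. ARP1, RSC4 and CLB4 are listed with another chromosome number than in R64 at about the same kb position, and are counted as certain. The 121 features of certain identity ran between 29.8% and 564%, with a median of 112%.

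**Figure D1:**
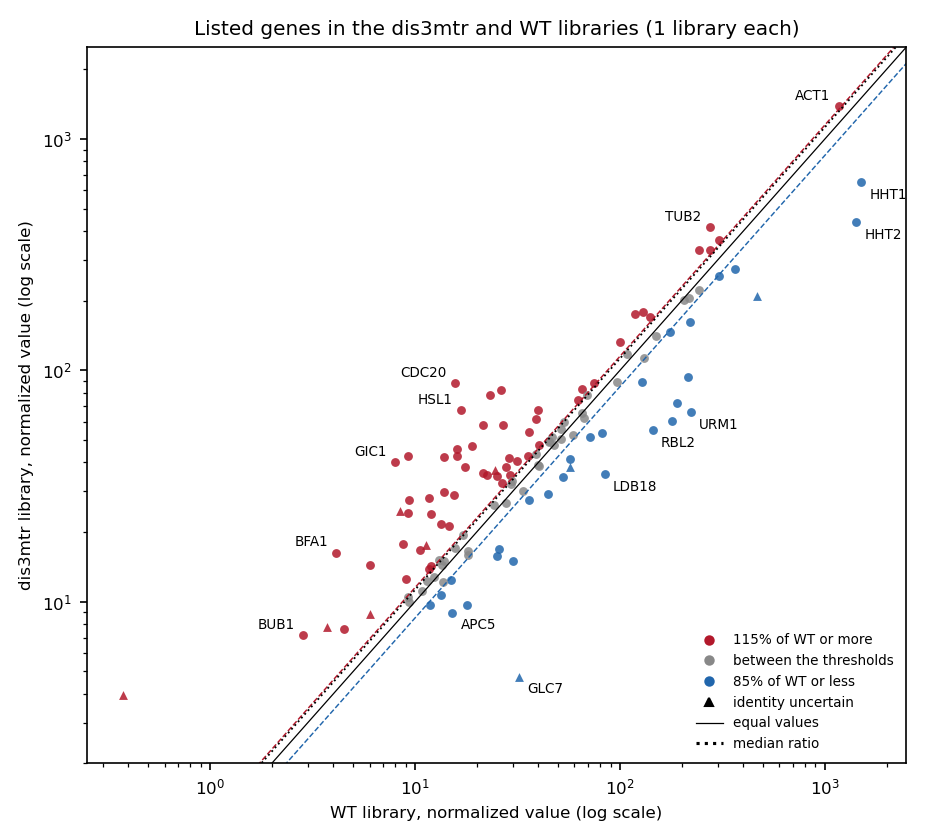
The dis3mtr value (vertical) is plotted against the WT value (horizontal) for the 130 features on log axes, in the authors' normalized units, 1 library each. Red points are high, blue points are low, and triangles have an uncertain identity. The points with the lowest WT values lie mostly above the line of equal values, and the histone H3 genes HHT1 and HHT2 lie below it at the right.

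The highest ratio of a gene of certain identity was that of CDC20, the activator that turns the anaphase-promoting complex on at the start of anaphase. It had 88.1 units in dis3mtr, 11.9 in mtr3-1, 13.1 in mtr4-1 and 15.6 in WT. The dis3mtr library stood alone here, since the other 3 libraries lay within a few units of each other. Its relative CDH1, which activates the same ligase later, at mitotic exit, had 41.7 units in dis3mtr and 28.7 in WT (145%). ESP1, the separase that cleaves cohesin once the ligase has acted, had 12.6 units in dis3mtr and 9.03 in WT (139%).

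At the other end stood URM1, a ubiquitin-like protein that also carries sulfur for tRNA modification. Its values were 65.9 units in dis3mtr, 129 in mtr3-1, 149 in mtr4-1 and 221 in WT, or 29.8% of WT in dis3mtr. All 3 mutant libraries were below WT, and dis3mtr was the lowest. The sequences before the start codons of these genes, the highest and the lowest of the comparison, are shown so that the motif matches given further on can be read against them. They were read by ORF identifier from RefSeq R64, 300 bases each, CDC20 at chr7:289509-289808 and URM1 at chr9:342236-342535, both on the plus strand. The stretches include any 5′ untranslated bases, which that annotation does not mark, and capitals mark a match to any motif searched.
CDC20: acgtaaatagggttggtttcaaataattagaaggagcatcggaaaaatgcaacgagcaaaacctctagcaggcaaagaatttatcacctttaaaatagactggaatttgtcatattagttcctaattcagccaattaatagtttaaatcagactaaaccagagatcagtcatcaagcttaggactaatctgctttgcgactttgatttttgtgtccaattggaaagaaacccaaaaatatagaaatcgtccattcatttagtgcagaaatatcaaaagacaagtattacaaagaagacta
URM1: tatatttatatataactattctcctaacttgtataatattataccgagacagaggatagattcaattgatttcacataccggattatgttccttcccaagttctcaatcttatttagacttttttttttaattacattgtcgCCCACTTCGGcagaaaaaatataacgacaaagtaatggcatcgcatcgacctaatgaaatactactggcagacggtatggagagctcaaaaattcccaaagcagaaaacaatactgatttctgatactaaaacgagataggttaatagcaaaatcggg
The CDC20 stretch holds none of the motifs in this window. In the URM1 stretch the capitals are a match to the core of the Mcm1 site, starting 158 bases before the start codon.

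The other subunits of the anaphase-promoting complex, the ubiquitin ligase that marks securin and cyclins for destruction, were all measured. Of its 13 core subunits, 8 were high and 1 low, with a median of 119%, beside 112.5% over all features; divided by the overall median, it became 106%, between the thresholds. The highest were DOC1, which helps the ligase bind its substrates, with 42.4 units in dis3mtr and 13.9 in WT (304%), APC1, its large scaffold, with 27.5 units in dis3mtr and 9.32 in WT (295%), and CDC16 with 58.2 units in dis3mtr and 21.6 in WT (270.0%). Next came a wide gap, since the fourth subunit in order, APC4, was at 145%. The lowest were APC5, with 8.96 units in dis3mtr and 15.2 in WT (59.0%), SWM1, with 52.6 units in dis3mtr and 59.0 in WT (89.1%), and APC2, a cullin of the catalytic core, with 11.1 units in dis3mtr and 10.9 in WT (102%). Subunits of the same complex thus ran between 59.0% and 304%. APC1 had 9.20 units in mtr3-1 and 7.80 in mtr4-1, close to its 9.32 in WT, while DOC1 had 26.4 in mtr3-1 and 20.5 in mtr4-1, between its dis3mtr and WT values.

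Among the B-type cyclins, which drive cells into and through mitosis with the kinase Cdc28, CLB2 had 23.9 units in dis3mtr and 11.9 in WT (201%). CLB1, the gene most like it, had 27.4 units in dis3mtr and 36.2 in WT (75.7%). Summed, the pair had 51.3 units in dis3mtr and 48.1 in WT (107%), so the members of the pair lay on opposite sides of WT and their sum lay near it. CLB3 stood at 129%, with 40.4 units in dis3mtr and 31.4 in WT, and its relative CLB4 at 118%, with 13.9 units in dis3mtr and 11.7 in WT. CLB5, an S-phase cyclin, had 12.1 units in dis3mtr and 13.8 in WT (88.1%). Of the 5 cyclins 3 were high and 1 low, with a median of 118%, and of 105% after division by the overall median.

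In the mitotic exit network, the kinase cascade that frees the phosphatase Cdc14, 1 of 5 measured genes was high and none low. That gene was NET1, which holds Cdc14 in the nucleolus, with 61.7 units in dis3mtr and 39.0 in WT (158%); it overlaps an annotated gene on the other strand. CDC14 itself had 38.7 units in dis3mtr and 40.4 in WT (95.8%). CDC15, a kinase of the cascade, had 15.1 units in dis3mtr and 13.1 in WT, and MOB1, a kinase activator, had 62.2 in dis3mtr and 67.2 in WT (92.6%). AMN1, which antagonises the network, had 114 units in dis3mtr and 131 in WT. The median of 95.8% was below that of all features. After division by the overall median it was 85.2%, with 1 gene high and 2 low.

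The spindle position checkpoint keeps this network off until the spindle reaches the bud, and 6 of its 8 measured genes were high and 2 low, with a median of 158%, beside 46.9% high and 23.1% low over all features. These include the row named DMA2 (147%), whose values are also those of CTF13; of the 7 genes of certain identity 5 were high and 2 low, with a median of 170.1%. BFA1 and BUB2 form the GTPase-activating pair that restrains the network. For BFA1 the values were 16.3 units in dis3mtr, 13.5 in mtr3-1, 19.8 in mtr4-1 and 4.13 in WT (395% in dis3mtr). WT was the outlying library for this gene, with all 3 mutants more than 13 units. BUB2 had 29.9 units in dis3mtr and 13.8 in WT (217%), and KIN4, the kinase that keeps the pair active, had 38.4 in dis3mtr and 17.6 in WT (217%). LTE1, which acts against the checkpoint in the bud, was at 170.1%, on low values of 7.63 units in dis3mtr and 4.48 in WT. Below WT were RTS1, the phosphatase subunit that activates Kin4, with 41.3 units in dis3mtr and 56.9 in WT (72.6%), and SPC72, with 9.65 in dis3mtr and 11.8 in WT (81.5%).

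For the spindle assembly checkpoint, which delays anaphase until kinetochores are attached by holding Cdc20, the 6 measured genes had a median of 110.4% (127% after division by the ratio of the summed values), with 2 high and 1 low. BUB3 had 78.1 units in dis3mtr, 31.2 in mtr3-1, 44.4 in mtr4-1 and 23.2 in WT, or 337% in dis3mtr. BUB1, the kinase that binds Bub3, was at 251% on low values, 7.16 units in dis3mtr and 2.85 in WT, and was the gene under a mean of 10 units that passed 2-fold with a certain identity. MAD2, which binds Cdc20 directly, was on the other side, with 29.2 units in dis3mtr and 44.6 in WT (65.5%). Between the thresholds lay MAD1 at 112% with 33.3 units in dis3mtr and 29.6 in WT, MAD3 at 108% with 17.02 in dis3mtr and 15.7 in WT, and MPS1 at 106% with 14.4 in dis3mtr and 13.6 in WT. For MAD2 the values of 26.9 units in mtr3-1 and 28.5 in mtr4-1 lay next to the dis3mtr value as deposited. After division by each mutant's own median ratio, MAD2 was at 58.2% in dis3mtr, 60.8% in mtr3-1 and 78.4% in mtr4-1.

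The kinetochore list, the proteins that tie centromeres to microtubules, had 7 measured genes, 4 high and 2 low, and 5 of them have an uncertain identity. SPC105, a scaffold for the checkpoint, was certain and had 21.6 units in dis3mtr and 13.4 in WT (162%). BIR1, a subunit of the chromosomal passenger complex, was also certain and had 12.7 units in dis3mtr and 12.4 in WT (103%). The rows named CBF2 (209%), CEP3 (155%) and CTF13 (147%) were above WT, and the rows named SKP1 (44.7%) and GLC7 (14.7%) below. With genes of a mean of 10 units or more the list's median was 103% in place of 147%. Both medians include rows of uncertain identity, and the 2 genes of certain identity had a median of 132%.

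At the spindle pole body, the organelle that nucleates yeast microtubules, 3 genes were measured and none was high. MPS1, a kinase needed for its duplication, is given above. SFI1, a component of the bridge where a new pole forms, had 15.9 units in dis3mtr and 18.1 in WT (88.1%), and SPC72, the receptor for the γ-tubulin complex on the cytoplasmic side, is given above. Their median of 88.1% became 78.4% after division by the overall median, below the lower threshold.

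All 3 measured tubulin genes were above the upper threshold. TUB2, the single β-tubulin gene, had 417 units in dis3mtr, 289 in mtr3-1, 292 in mtr4-1 and 274 in WT (152% in dis3mtr). TUB1, the major α-tubulin gene, had 179 units in dis3mtr, 136 in mtr3-1, 126 in mtr4-1 and 129.6 in WT (138% in dis3mtr). TUB3, the minor α-tubulin gene, had 171 units in dis3mtr, 137 in mtr3-1, 98.3 in mtr4-1 and 139.6 in WT (122% in dis3mtr). As deposited, the dis3mtr library was the highest of the 4 for each of them. After the ratios of each mutant were divided by their own median, TUB2 was at 135% in dis3mtr, 106% in mtr3-1 and 131% in mtr4-1. In the same order, TUB1 was then at 123%, 106% and 119%, and TUB3 at 109%, 99.1% and 86.5%. TUB3 overlaps an annotated gene on the other strand. Summed over the 3 genes, the values were 767 units in dis3mtr and 543 in WT.

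The tubulin folding cofactors differed from each other. CIN1, the cofactor D that assembles α- and β-tubulin into a dimer, had 42.5 units in dis3mtr, 34.1 in mtr3-1, 30.4 in mtr4-1 and 9.23 in WT (461% in dis3mtr). RBL2, cofactor A, which binds free β-tubulin, had 55.2 units in dis3mtr, 65.1 in mtr3-1, 105 in mtr4-1 and 144 in WT (38.2% in dis3mtr). PAC2, cofactor E, which binds α-tubulin, had 9.70 units in dis3mtr and 17.9 in WT (54.2%). The cofactors for α-tubulin and for free β-tubulin were thus low in dis3mtr while the cofactor that joins them was high. For CIN1 WT was the outlying library, since mtr3-1 was at 369% of WT and mtr4-1 at 329%.

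Prefoldin, the complex that hands new actin and tubulin chains to the chaperonin, had 5 measured subunits, with none high, 3 low and a median of 69.7%. GIM4 had 72.0 units in dis3mtr and 189 in WT (38.1%), and YKE2 had 93.5 units in dis3mtr and 215 in WT (43.4%). GIM5 followed with 89.1 units in dis3mtr and 128 in WT (69.7%). PAC10 and GIM3 lay near WT, PAC10 with 141 units in dis3mtr and 149.6 in WT, and GIM3 with 202 units in dis3mtr and 205 in WT. Subunits of this complex thus ran between 38.1% and 98.9%. After division by the overall median, 4 of the 5 subunits were low, PAC10 among them at 84.0%. In the chaperonin CCT, which folds actin and tubulin, 2 of 7 subunits were high and 3 low.

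CCT4 had 332 units in dis3mtr and 242 in WT (137%), and CCT6 had 332 units in dis3mtr and 275 in WT (121%). CCT5 had 205 units in dis3mtr and 218 in WT (94.3%). At the low end, CCT8 had 161 units in dis3mtr and 219 in WT (73.5%), CCT7 had 146 in dis3mtr and 177 in WT (82.9%), and CCT3 had 256 in dis3mtr and 303 in WT (84.5%). Summed over the 7 subunits the ring stood at 1656 units in dis3mtr and 1678 in WT, close to equal, while the members ran between 73.5% and 137%. Its median of 90.8% became 80.8% after division by the overall median, below the lower threshold.

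**Figure D2:**
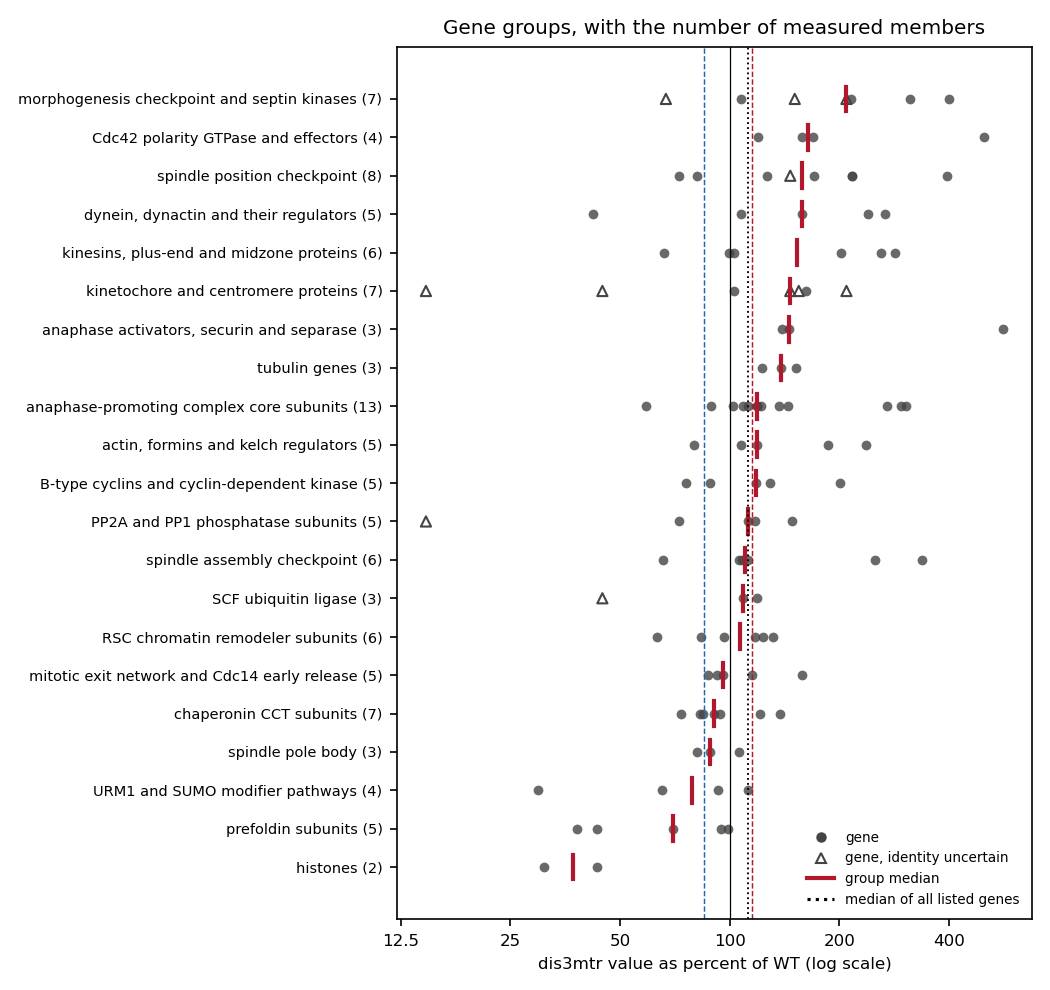
The dis3mtr value as a percent of WT is shown on a log axis for each measured gene of the lists described with at least 2 measured members, 1 library each, with a red bar at the list's median and dashed lines at the authors' thresholds. Among the lists drawn, which leave out the tubulin folding cofactors, the medians run between 37.1% for the histones and 209% for the morphogenesis and septin kinase list.

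Motor proteins of the spindle and its position came next. DYN1, the dynein heavy chain that pulls the spindle into the bud, had 28.1 units in dis3mtr, 15.8 in mtr3-1, 10.4 in mtr4-1 and 11.7 in WT (239.9% in dis3mtr). ARP1, the actin-related filament of dynactin, had 42.7 units in dis3mtr and 15.99 in WT (267%). LDB18, another dynactin component, had 35.6 units in dis3mtr, 76.7 in mtr3-1, 71.6 in mtr4-1 and 84.3 in WT, so it was low in dis3mtr (42.2%) while the other 3 libraries lay close together. JNM1, the dynamitin of yeast, had 26.2 units in dis3mtr and 24.4 in WT (107%), and SHE1, a regulator of dynein, had 16.7 in dis3mtr and 10.6 in WT (158%). The 3 dynactin components thus spread over both sides of WT. Of the 5 genes 3 were high and 1 low, with a median of 158%, beside 46.9% high and 23.1% low over all features.

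Of 6 kinesin, plus-end and midzone genes, 3 were high and 1 low, close to the shares of 46.9% and 23.1% over all features, with a median of 153%. KIP3, a kinesin that shortens microtubules, had 45.6 units in dis3mtr, 19.1 in mtr3-1, 16.6 in mtr4-1 and 16.03 in WT (285% in dis3mtr). CIK1, the partner of the kinesin Kar3, had 24.1 units in dis3mtr and 9.28 in WT (260.0%), and ASE1, which bundles midzone microtubules, had 17.7 in dis3mtr and 8.73 in WT (203%). BIM1, the EB1 protein of growing plus ends, had 53.9 units in dis3mtr, 39.2 in mtr3-1, 35.2 in mtr4-1 and 81.8 in WT (65.9% in dis3mtr). All 3 mutants were below WT for BIM1, with dis3mtr the least so. BIK1, which is also found at plus ends, had 47.7 units in dis3mtr and 47.7 in WT. BIR1, at 103%, completes the list and is also counted in the kinetochore list. The median of 153% falls in the gap between BIR1 and ASE1, where no gene of the list lies.

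The morphogenesis checkpoint, which links the septin ring at the bud neck to entry into mitosis, had 5 of 7 measured genes high and 1 low, with a median of 209%. HSL1, a kinase at the bud neck, had 67.3 units in dis3mtr, 45.0 in mtr3-1, 33.4 in mtr4-1 and 16.8 in WT (399% in dis3mtr). HSL7, its partner in recruiting and degrading Swe1, had 82.3 units in dis3mtr, 46.1 in mtr3-1, 31.5 in mtr4-1 and 26.2 in WT (314% in dis3mtr). For both genes dis3mtr was the highest library and WT the lowest. CLA4, a p21-activated kinase that helps to assemble septins, had 58.1 units in dis3mtr and 27.0 in WT (215%), and MIH1, the phosphatase that reverses the action of Swe1, had 12.2 in dis3mtr and 11.4 in WT (107%). The rows named KCC4 (209%), GIN4 (151%) and BNI5 (66.9%) have uncertain identities; without them the median of the remaining 4 genes was 265%.

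For Cdc42, the GTPase that sets up polarity and the bud, the 4 measured genes of the list were high, with a median of 164%, beside 46.9% high over all features. The list was drawn without the p21-activated kinases, which also bind Cdc42 and of which CLA4 was at 215% and SKM1 at 65.9%. GIC1, an effector that binds active Cdc42, had 40.0 units in dis3mtr, 41.9 in mtr3-1, 21.5 in mtr4-1 and 8.02 in WT (499% in dis3mtr). Its value in mtr3-1 was as high as in dis3mtr. GIC2, the related effector, had 67.5 units in dis3mtr and 39.7 in WT (169.8%), and CDC24, the exchange factor for Cdc42, had 35.3 in dis3mtr and 22.4 in WT (158%). CDC42 itself had 367 units in dis3mtr and 306 in WT (119.9%), inside the thresholds after division by the overall median.

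Of the actin and kelch genes, BNI1, a formin that nucleates actin cables, had 28.9 units in dis3mtr and 15.5 in WT (186%). KEL2 had 14.4 units in dis3mtr and 6.05 in WT (237%), and its relative KEL1 had 10.7 in dis3mtr and 13.3 in WT (80.1%). ACT1, the single actin gene, had 1389.6 units in dis3mtr and 1169 in WT (119%). MYO2, the myosin that moves cargo along the cables, had 55.7 units in dis3mtr and 51.7 in WT (108%). Of these 5 genes 3 were high and 1 low; the median was 119%, or 106% after division by the overall median.

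Among phosphatase genes, the PP2A catalytic subunit PPH21 had 176 units in dis3mtr and 119 in WT (148%). Its relative PPH22 had 88.3 units in dis3mtr and 75.1 in WT (118%). The PP2A regulatory subunit CDC55 had 59.9 units in dis3mtr and 53.5 in WT (112%), while RTS1, the other regulatory subunit, was at 72.6%, as given above. The row named GLC7, the PP1 catalytic subunit, had 4.74 units in dis3mtr and 32.3 in WT, with an uncertain identity. The 5 genes, 2 high and 2 low, had a median of 112%, equal to that of all features at this rounding, and of 129% after division by the ratio of the summed values.

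The chromatin remodeler RSC, which moves nucleosomes at promoters and centromeres, had 3 of 6 measured subunits high and 2 low, near the shares of 46.9% and 23.1% over all features; after division by the overall median 1 was high and 2 low. RSC6 had 132 units in dis3mtr and 100.5 in WT (132%), SFH1 had 32.7 in dis3mtr and 26.5 in WT (123%), and RSC9 had 47.3 in dis3mtr and 40.3 in WT. STH1, the motor subunit, had 26.8 units in dis3mtr and 27.8 in WT (96.4%). RSC3 had 12.4 units in dis3mtr and 14.9 in WT, and RSC4, which binds acetylated histone tails, had 15.8 in dis3mtr and 25.04 in WT (63.1%). The median was 107%, and 123% after division by the ratio of the summed values.

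The histone H3 genes had the largest absolute differences of the comparison. HHT2 had 438 units in dis3mtr, 421 in mtr3-1, 800 in mtr4-1 and 1417 in WT (30.9% in dis3mtr). HHT1 had 650.2 units in dis3mtr, 402 in mtr3-1, 1108 in mtr4-1 and 1506 in WT (43.2% in dis3mtr). In both genes dis3mtr and mtr3-1 were the lowest libraries and WT the highest. Most histone mRNA of yeast is made in S phase and carries a poly(A) tail, so poly(A) selection keeps it. No gene of histones H2A, H2B or H4 was measured.

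Of the ubiquitin-like modifier genes, ULP1, which cuts SUMO from its targets, had 16.9 units in dis3mtr and 25.8 in WT (65.4%). UBC9, the enzyme that conjugates SUMO, had 89.3 units in dis3mtr and 96.3 in WT (92.7%), and UBA4, the enzyme that activates Urm1, had 78.1 in dis3mtr and 69.4 in WT (113%). URM1 and its activating enzyme thus differed, at 29.8% and 113%. The 4 genes, none high and 2 low, had a median of 79.1%, and of 90.9% after division by the ratio of the summed values. In the SCF ubiquitin ligase, the cullin CDC53 had 42.5 units in dis3mtr and 35.7 in WT (119%), and the substrate receptor CDC4 had 48.9 in dis3mtr and 45.0 in WT (109%). The row named SKP1, the adaptor between them, had 209 units in dis3mtr and 467 in WT; with it the list's median was 109%, and 125% after division by the ratio of the summed values.

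CHS1, a chitin synthase that repairs the wall at cell separation, had 60.3 units in dis3mtr, 191 in mtr3-1, 89.7 in mtr4-1 and 179 in WT (33.7% in dis3mtr). It was low in dis3mtr and mtr4-1 and not in mtr3-1. TAO3, a scaffold of the network that drives daughter-cell gene expression and cell separation, had 47.3 units in dis3mtr, 24.4 in mtr3-1, 18.5 in mtr4-1 and 19.0 in WT (248% in dis3mtr). CBK1 and MOB2, the kinase and its activator in that network, were at 112% and 111%. The 20 features in no list had a median of 110.2%, with 6 high and 3 low. They included RPN4, the transcription factor of proteasome genes, with 54.4 units in dis3mtr and 35.9 in WT (152%), and CMD1, calmodulin, with 275 in dis3mtr and 364 in WT (75.6%).

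**Figure D3:**
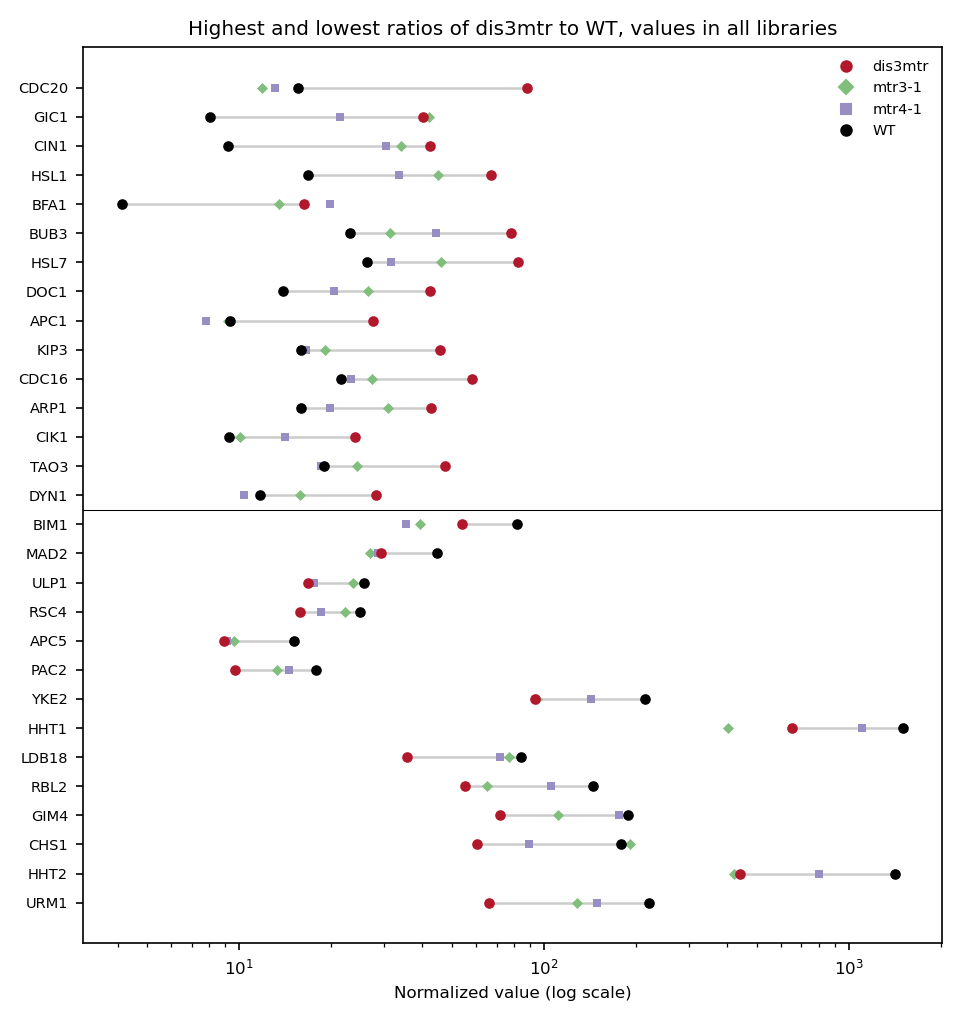
Normalized values on a log axis are shown for the highest and lowest ratios of dis3mtr to WT among genes of certain identity with a mean of 10 units or more, 1 library per genotype, with a grey line between dis3mtr and WT. For CDC20, APC1 and KIP3 the mtr3-1 and mtr4-1 symbols lie beside WT, and for GIC1 and CIN1 they lie toward dis3mtr.

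Related genes often had different percents of WT in dis3mtr. This concerns the ratio to WT and not the distance between the values of a pair within the dis3mtr library. CLA4 stood at 215% and SKM1, a kinase of the same class, at 65.9%, with 34.6 units in dis3mtr and 52.6 in WT. For the kelch genes the percents were 237% for KEL2 and 80.1% for KEL1, for the cyclins 201% for CLB2 and 75.7% for CLB1, and for the Cdc42 effectors 499% for GIC1 and 169.8% for GIC2. BUB1 was at 251% and MAD3, which shares a part of its sequence, at 108%. Pairs with percents near each other were TUB3 and TUB1, CLB3 and CLB4, and the lipase genes TGL4 and TGL3 at 110.0% and 110.5%.

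Whether a short read can tell such genes apart depends on their sequence. The reads had 36 cycles, of which 3 bases were a barcode, so stretches of 33 bases were compared between the coding sequences of RefSeq R64, each read by its ORF identifier. For reads that match several genes, the sources used here do not say how the authors placed them. HHT2 and HHT1 shared 22.96% of their stretches and an unbroken run of 74 bases. PPH21 and PPH22 shared 20.2% and a run of 194 bases, and the other pairs named here shared no identical stretch. Only identical coding stretches were counted, so reads placed with a mismatch or outside the coding sequence were not covered. Of the genes outside these pairs, CDC4 and CDC27 also hold stretches found more than once in the genome, 15.4% and 1.83% of theirs. Whether those copies lie inside the same gene or elsewhere was not determined, so these values may be affected too. The values of HHT2 and HHT1, and of PPH21 and PPH22, are therefore uncertain as single genes. Summed, the H3 genes stood at 1089 units in dis3mtr and 2923 in WT (37.2%), and PPH21 and PPH22 at 264 in dis3mtr and 194 in WT (136%).

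Coding stretches of 3 pairs are shown, with capitals at the bases that differ within a pair, to let the difference be seen. In the histone pair, coding bases 61 to 180 differ at 4 places and hold the run of 74 bases; HHT2 lies on the minus strand at chr14:575871-575990 and HHT1 on the plus strand at chr2:256391-256510.
HHT2: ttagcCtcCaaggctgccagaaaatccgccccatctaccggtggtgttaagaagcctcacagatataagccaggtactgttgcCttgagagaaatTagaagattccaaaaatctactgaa
HHT1: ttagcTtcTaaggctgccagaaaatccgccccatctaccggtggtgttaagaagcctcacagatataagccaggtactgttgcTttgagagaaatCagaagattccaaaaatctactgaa
In the α-tubulin pair, coding bases 1198 to 1277 differ at 2 places and hold the longest shared run, 32 bases, 1 base shorter than a read. A read from this part can thus differ between the genes at 1 base only. TUB3 lies at chr13:22109-22188 and TUB1 at chr13:98008-98087, both on the minus strand.
TUB3: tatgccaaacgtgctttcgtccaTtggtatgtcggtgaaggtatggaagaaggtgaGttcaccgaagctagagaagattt
TUB1: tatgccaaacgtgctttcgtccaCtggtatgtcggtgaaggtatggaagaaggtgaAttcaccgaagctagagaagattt
In the cyclin pair the longest shared run is 17 bases, and the 60 bases around it differ at 13 places; CLB2 lies at chr16:772620-772679 and CLB1 at chr7:704543-704602, both on the plus strand.
CLB2: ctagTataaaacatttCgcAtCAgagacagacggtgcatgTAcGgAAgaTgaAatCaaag
CLB1: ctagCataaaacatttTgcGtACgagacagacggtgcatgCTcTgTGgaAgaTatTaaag
The coding parts of CLB2 and CLB1 share no stretch of read length, which does not hold for the histone pair.

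**Figure D4:**
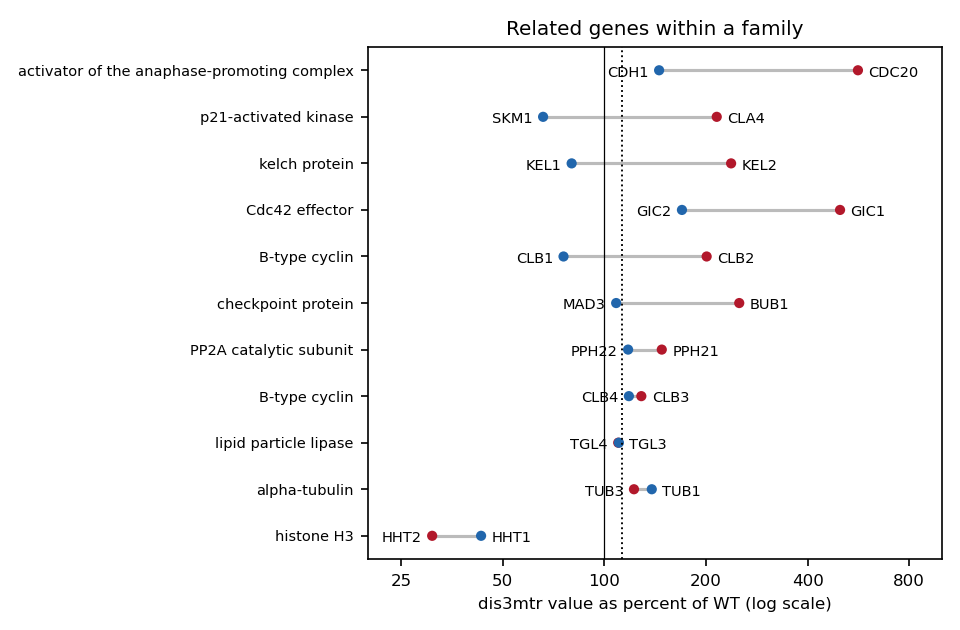
Percent of WT in dis3mtr on a log axis for the members of 11 pairs of related genes, joined by a grey line, 1 library each; red and blue only tell the members of a pair apart. The pairs CDC20 and CDH1, CLA4 and SKM1, and KEL2 and KEL1 lie farthest apart, and TGL4 and TGL3 lie on top of each other.

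The ratios were set beside properties of the genes in R64, for the 121 features of certain identity. Split into 4 groups of 30 or 31 by coding length, the shortest group (300 to 1107 bases) had a median of 92.6% of WT, with 9 features high and 13 low. The middle groups had medians of 119.9%, with 18 features high and 3 low, and 108%, with 8 high and 8 low. The longest group (2403 to 12279 bases) had a median of 166%, with 20 features high and 3 low. Over all 121 features 55 were high and 27 low, and the counts did not change steadily with length. The prefoldin genes (336 to 600 bases, median 390), RBL2 (321 bases), URM1 (300 bases) and the histone H3 genes (411 bases) all belong to the shortest group, beside a median of 1641 bases over the 121 features. CIN1 (3045 bases), HSL1 (4557 bases), APC1 (5247 bases) and DYN1 (12279 bases) belong to the longest. The part of gene length in the values of these groups was not tested. Across the 121 genes, which are not replicates, Spearman's rho of the ratio with coding length was 0.34. Genes far from that order were CHS1 (3396 bases) at 33.7% and GIC1 (945 bases) at 499%.

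**Figure D5:**
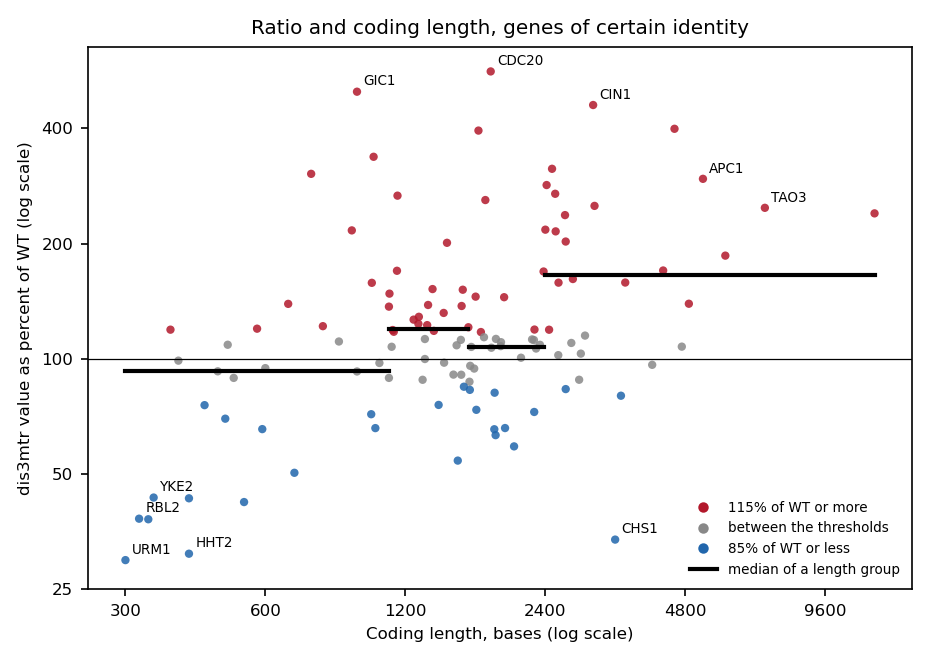
Percent of WT in dis3mtr (vertical) against coding length in bases (horizontal), both on log axes, for the 121 features of certain identity, with black bars at the median of each of 4 groups by length. The bar of the shortest group lies at 92.6% and that of the longest at 166%.

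By GC content of the coding sequence, the medians of 4 such groups were 106%, 113%, 114% and 119% in rising order, with 11, 8, 6 and 2 low (Spearman's rho 0.21 across 121 genes, which are not replicates). Features next to a convergent gene downstream had a median of 109% (70 features) and those with a tandem one 119% (51 features). Divergent and tandem neighbours upstream gave 110.5% and 112%. The 8 genes with an intron had a median of 102%.

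Values also moved with level. Ordered by the WT value, the lower, middle and upper groups of 43 or 44 features had medians of 162%, 112% and 91.7%, with 19, 6 and 0 features at 200% or more. Ordered by the dis3mtr value, the medians were 108%, 119% and 110.4%. The ratio has the WT value as its divisor, so the first ordering and the ratio share a measurement, and the part of counting error at low values was not tested.

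Finally, 4 short motifs of cell-cycle and stress factors were searched on both strands in the 300 bases before the start codon. The forkhead site GTAAACA, read by Fkh1 and Fkh2, was found before 17 of the 121 features (14.05%), against 6.98% of 6020 promoters of the genome. Features with it had a median of 114% and those without it 112%. The Mcm1 core, CC and GG with 6 bases of any kind between them, was found before 33 features (27.3%, against 28.7% of all promoters), and these had a median of 97.5%, against 116% without it. The MCB box ACGCGT was found before 1.65% of features and 3.47% of all promoters, and the heat shock element, the blocks TTC, GAA and TTC with 2 bases of any kind between neighbours, in 0.826% and 0.864%. The only feature with a heat shock element was RPN4. These matches describe letters and were not tied to binding by any factor.

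Listed genes that are neighbours in the genome had separate values. CLB2 at 201% and CLB5 at 88.1% are convergent, with 746 bases between their coding parts. MAD3 at 108% and CCT3 at 84.5% are convergent with 330 bases between them, and TVP38 at 71.6% and TGL4 at 110.0% lie in tandem with 214 bases between them. The sources used here do not say whether strand was used in counting.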

How the data were processed

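RNA-seq of poly(A)-selected RNA was analysed for 4 genotypes with 1 library each. Per the labels' protocols, libraries carried a barcode of 3 bases and shared a single Illumina GAIIx lane with 36 cycles, and the submitters' processing notes name Bowtie and sacCer2. The deposited tables give normalized signal values made by the authors, whose normalization and counting the sources used here do not state, and those values as a percent of WT. Whole reads could not be recovered, so depth and counting error are unknown. The deposited percents equalled 100 times mutant over WT (largest deviation 1.1e-13).

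Of 190 entries, 175 held values. Each ORF was taken once, and ORFs sharing values counted once, as 130 features. Ratios were computed as deposited and divided by the median ratio, and set against the thresholds of 115% and 85% that the authors used, per the file headers. Names, coding sequences and neighbours came from RefSeq R64 by ORF identifier (141 of 144 found). The sacCer2 positions of the files were set beside R64 positions only to check identities, with a tolerance of 1 kb. Counting past the thresholds and division by the median were checked on simulated ratios without noise, which were set in advance. That check did not cover the matching of identities, the lists, the sequence comparisons or the motifs. Python 3.11.15, pandas 2.3.3, numpy 2.4.6 and scipy 1.17.1 were used.

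Genes given in full were the 15 highest and 15 lowest ratios with a mean of 10 units or more, members of lists with 3 or more measured genes, and the tubulins; 1 gene and 1 motif are not reported here. Lists without a measured member (G1 cyclins, septins, cohesin and condensin, exosome, heat shock chaperones) gave no value, and DDC1, alone in the DNA damage list, was at 107%. Members and lists were chosen with earlier results of these data known. Alternatives tried were scaling, a pseudocount of 1, a floor of 10 units, identity, the counting unit and the fold.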

Additional observations from a re-analysis of the deposited data

How the results depend on the processing

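No paired analysis was possible because each genotype has 1 library, and for the same reason no replicate could be left out. No value moved across both thresholds. After division by the ratio of the summed values 83 features were high and 23 low, against 47 and 41 after division by the median. The median over all features was 129% after division by the ratio of the summed values and 117% over table entries. With 1.5-fold in place of the authors' thresholds 37 features were high and 18 low, and with 2-fold 25 and 10. After division by the overall median, list medians that crossed a threshold were 80.8% for the chaperonin, 78.4% for the spindle pole body, 106% for the anaphase-promoting complex, 105% for the B-type cyclins and 106% for actin and kelch genes. After division by the ratio of the summed values they were 127% for the spindle assembly checkpoint, 129% for phosphatases, 123% for RSC, 90.9% for URM1 and SUMO and 125% for SCF. With a mean of 10 units or more the kinetochore median was 103%. Among single genes named by ratio, TUB3 crossed a threshold, at 109% after division by the median. The other 94 list medians and 101 gene values computed under these alternatives stayed on the same side of the thresholds. Counting each ORF with shared values separately was chosen after seeing the data and moved no count past 1.5 times. Depth limits are unknown, since no counts were used.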
